A study of Mus musculus with 24 samples.

Results

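The liver turns methionine into methyl groups and cysteine, and makes serine for the same route. The genes described here are 10 enzymes of these steps, listed by name, though with earlier results of these data known. Mat1a, Gnmt, Bhmt and Ahcy belong to the methionine cycle, and Cbs and Cth to transsulfuration. Cdo1 and Csad belong to cysteine breakdown to taurine, and Phgdh and Psat1 to serine synthesis. All 10 were measured, by 15 probe sets annotated to the gene alone, out of 18193 genes and 45037 probe sets tested. A further 2 probe sets name Phgdh together with Gm8096 or Gm6756 and were not used.

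In the methionine cycle, methionine is activated to S-adenosylmethionine, which gives up its methyl group and becomes S-adenosylhomocysteine and then homocysteine. Homocysteine is either methylated back to methionine or joined to serine, and the product is cleaved to cysteine, a building block of glutathione and the source of taurine. The liver is the main site of this route. Nrf2 is a transcription factor that is held down by Keap1 and turns on genes for glutathione synthesis and detoxification.

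The arrays hold liver RNA of 24 male C57BL6/J mice, with 1 Affymetrix whole genome mouse array per mouse and 8 mice in each of 3 groups. The mice received siKeap1-1 or siKeap1-2, a pair of chemically modified siRNAs against Keap1, or siControl, a scrambled siRNA, by weekly tail vein injection of 1 mg per kg in PBS for 7 weeks. All groups were 8 weeks old at the start and all ate a western diet, that is high-fat food with sucrose in the drinking water. The siRNAs were packed in lipid nanoparticles that reach mainly hepatocytes, and per the methods the RNA came from 4 fed and 4 fasted mice per group, but the labels do not say which mouse was which. Feeding state could therefore not be separated from the spread within groups.

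Array medians ranged from 5.84 to 5.96 in log2 signal. Keap1, the targeted gene, had log2 signals of 7.21 to 7.93 with siKeap1-1, 8.03 to 8.59 with siKeap1-2 and 9.33 to 10.03 with siControl. Keap1 fell by 2.13 with siKeap1-1 and dropped by 1.36 with siKeap1-2 on the log2 scale, and no mouse of either siRNA group reached the control range (exact permutation test, two-sided, p = 0.000155 for each siRNA, the smallest that 12870 splits allow). Nqo1, a target gene of Nrf2, was higher in every siKeap1-1 and siKeap1-2 mouse (10.98 to 11.45 and 10.61 to 11.25) than in any siControl mouse (8.71 to 9.42). The 5 hepatocyte markers measured had a summed level of 16.79 to 16.86 on the log2 scale with siKeap1-1, 16.80 to 16.88 with siKeap1-2 and 16.83 to 16.90 with siControl. None of these 5 passed the test (limma, with 2 and 1 at an unadjusted p under 0.05). Of 5 Kupffer cell markers 1 passed with each siRNA (Vsig4, −0.60, with siKeap1-1 and Marco, 1.49, with siKeap1-2), and their summed level was 12.54 to 13.50 with siKeap1-1, 12.83 to 13.92 with siKeap1-2 and 12.73 to 13.58 with siControl. No endothelial, stellate, bile duct, lymphocyte, neutrophil or adipocyte marker passed, although 1 stellate and 1 lymphocyte marker with siKeap1-1 and 2 bile duct markers with siKeap1-2 had an unadjusted p under 0.05. Among 7 pericentral hepatocyte markers Rhbg (1.11) and Cyp1a2 (0.73) rose with siKeap1-1 and Rhbg (1.18) with siKeap1-2, while the other 5 of the 7 had negative differences with either siRNA that did not pass. Oat (−0.44) and Lgr5 (−0.52) with siKeap1-1, and Lgr5 (−0.53) and Cyp1a2 (0.51) with siKeap1-2, had an unadjusted p under 0.05 without passing. Among 5 periportal markers Cyp2f2 (0.20) rose with siKeap1-1. The summed level of the pericentral list was 15.75 to 15.93 with siKeap1-1, 15.75 to 15.96 with siKeap1-2 and 15.71 to 15.92 with siControl, and no marker of any list was at 0. The part of these markers in the results was not tested. In whole liver, fewer cells of a type and less RNA per cell cannot be told apart.

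A pair of promoters is shown because Cbs is the gene of the 10 that passed the test with siKeap1-1, though not with siKeap1-2, and Phgdh is the gene whose promoter holds a motif of interest. Promoters of 250 bases before to 50 bases after the start site were available from RefSeq (GRCm38.p6) for 7 of the 10 genes, as 9 sequences. They were searched on both strands for TGACNNNGC, the core of the antioxidant response element that Nrf2 binds, which 12.4% of all 32851 promoters of the table hold, and for TGATGNAA, an element of the C/EBP-ATF family, which 3.97% hold. The 2 motifs overlapped in none of the sequences searched. Neither motif was in the Cbs promoter at chr17:31637156-31637455, minus strand, so that no base is in capitals. In the Phgdh promoter at chr3:98339920-98340219, minus strand, the capitals mark 1 match to the antioxidant response element core, read on the other strand, with its first base at −53 from the start site.
Cbs: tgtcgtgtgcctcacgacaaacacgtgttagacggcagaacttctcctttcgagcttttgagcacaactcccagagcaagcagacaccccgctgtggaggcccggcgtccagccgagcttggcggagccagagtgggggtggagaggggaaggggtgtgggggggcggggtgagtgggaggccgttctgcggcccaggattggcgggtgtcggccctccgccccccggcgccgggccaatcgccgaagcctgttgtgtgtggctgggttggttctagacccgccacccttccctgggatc
Phgdh: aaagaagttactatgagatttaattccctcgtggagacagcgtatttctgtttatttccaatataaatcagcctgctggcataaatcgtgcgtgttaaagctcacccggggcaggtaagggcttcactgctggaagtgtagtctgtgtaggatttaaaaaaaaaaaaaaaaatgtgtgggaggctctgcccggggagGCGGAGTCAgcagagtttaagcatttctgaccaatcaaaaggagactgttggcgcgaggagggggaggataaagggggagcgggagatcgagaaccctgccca
The other 7 sequences, of Gnmt, Bhmt, Ahcy, Csad and Psat1, held neither motif. These matches describe letters and no binding was measured.

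Of the 10 genes, 1 differed between siKeap1-1 and siControl at an adjusted p under 0.05, which was Cbs and was lower (limma, a single fit of the 3 groups, Benjamini-Hochberg over all probe sets). Over all genes 9.49% passed in this comparison. By probe sets it was 2 of 15, both of Cbs, with 8.99% of all probe sets passing. With siKeap1-2 none of the 10 genes and none of the 15 probe sets passed (6.6% of all genes and 6.1% of all probe sets did), and 1 gene and 2 probe sets, again those of Cbs, had an unadjusted p under 0.05. Between siKeap1-1 and siKeap1-2 none passed (0.242% of genes and 0.162% of probe sets), with 1 gene, Cbs, and its 2 probe sets having an unadjusted p below that level. Across the 10 genes the median log2 fold change was −0.035 with siKeap1-1 and −0.029 with siKeap1-2, beside 0.014 and −0.0073 over all genes. Both comparisons use the same 8 control mice.

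**Figure D1:**
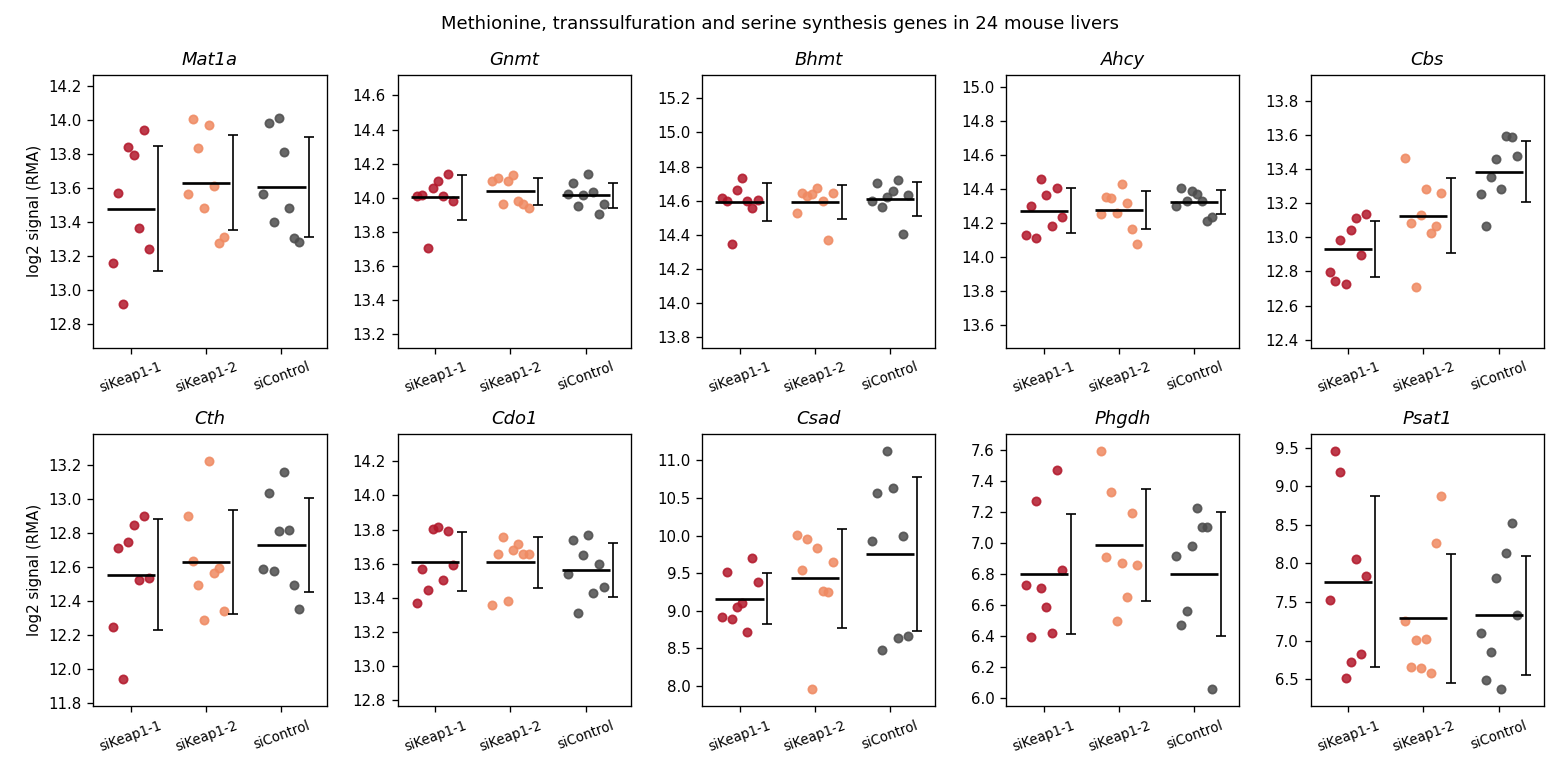
Log2 signal of the brightest probe set of each of the 10 genes by group (siKeap1-1, siKeap1-2, siControl), with 1 point per mouse, the group mean as a line and the SD as a bar (n = 8 mice per group). Each panel has its own axis of log2 signal, and only in the Cbs panel do most siKeap1-1 mice (6 of 8) lie below every siControl mouse.

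Mat1a encodes the liver form of the enzyme that makes S-adenosylmethionine. Its lowest, median and highest log2 signals were 12.92, 13.47 and 13.94 with siKeap1-1, 13.28, 13.59 and 14.00 with siKeap1-2 and 13.28, 13.52 and 14.01 with siControl. The 3 groups covered nearly the same range, apart from siKeap1-1 replicates 1, 3 and 8, which lay below every control, as did siKeap1-2 replicate 7 narrowly. The difference from siControl was −0.13 with siKeap1-1 (95% interval −0.44 to 0.18, adjusted p = 0.671 from limma) and 0.03 with siKeap1-2 (−0.28 to 0.33, adjusted p = 0.95). With the signal of control probe sets for 18S ribosomal RNA as a covariate, the differences were −0.50 (adjusted p = 0.236) and −0.32 (adjusted p = 0.688). The 18S signal itself differed between the groups, so that in every fit with this covariate siRNA and 18S signal cannot be fully told apart.

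Gnmt encodes glycine N-methyltransferase, which spends S-adenosylmethionine on glycine and is abundant in liver. Its log2 signals ran from 13.70 over a median of 14.02 to 14.14 with siKeap1-1, from 13.94 over 14.04 to 14.13 with siKeap1-2 and from 13.91 over 14.02 to 14.14 with siControl. A single mouse, siKeap1-1 replicate 3, was below all others. The differences were −0.01 (95% interval −0.13 to 0.11) with siKeap1-1 and 0.02 (−0.10 to 0.14) with siKeap1-2. In percent of the control signal these intervals run from −8.60% to 7.67% and from −6.42% to 10.3%.

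Bhmt encodes the enzyme that methylates homocysteine back to methionine with betaine. It measured 14.35, 14.60 and 14.73 (lowest, median and highest) with siKeap1-1, 14.37, 14.64 and 14.68 with siKeap1-2 and 14.40, 14.63 and 14.72 with siControl. Each group had 1 mouse at or below 14.40, and the other mice of all groups were at 14.53 or above. The differences from siControl were −0.02 with either siRNA, with 95% intervals of −0.14 to 0.10.

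Ahcy encodes the hydrolase that splits S-adenosylhomocysteine into homocysteine and adenosine. Its signals were 14.11, 14.27 and 14.46 with siKeap1-1, 14.08, 14.29 and 14.43 with siKeap1-2 and 14.21, 14.33 and 14.41 with siControl. The control mice lay inside the range of both siRNA groups. The differences were −0.05 with each siRNA (95% interval −0.17 to 0.08). The highest log2 signal of any probe set on any array was 15.21, and whether the bright probe sets of Gnmt, Bhmt and Ahcy were still in the linear range was not tested.

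Cbs encodes cystathionine beta-synthase, which joins homocysteine to serine and commits the sulfur to cysteine. Its brighter probe set measured 12.73, 12.94 and 13.14 (lowest, median and highest log2 signal) with siKeap1-1, 12.71, 13.11 and 13.47 with siKeap1-2 and 13.07, 13.41 and 13.59 with siControl. Of the siKeap1-1 mice 6 of 8 were below every control and all 8 were below the control median, while the ranges overlapped between 13.07 and 13.14. Of the siKeap1-2 mice 3 of 8 were below every control and 7 of 8 below the control median.

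Cbs fell with siKeap1-1 by 0.46 on the log2 scale (standard error 0.09, 95% interval −0.65 to −0.26, adjusted p = 0.00288 by limma with 8 mice in each group), a change of −27.1%. With siKeap1-2 the difference was −0.26 (95% interval −0.45 to −0.06, adjusted p = 0.107), or −16.4%, and did not pass. The siRNAs differed from each other by −0.20 (siKeap1-1 minus siKeap1-2, 95% interval −0.39 to −0.004, adjusted p = 0.53), so that a smaller effect of siKeap1-2 was not established. The dimmer probe set gave −0.55 with siKeap1-1 (95% interval −0.80 to −0.30, adjusted p = 0.0052) and −0.27 with siKeap1-2 (adjusted p = 0.205). The 2 probe sets followed each other closely from mouse to mouse, with a Pearson r of 0.99 between their residuals from the group means over 24 arrays, a description without a test.

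The difference in Cbs varied with the control arrays it was set against. The labels do not divide the controls, and the parts used here were chosen with earlier results of these data known. The p-values against either part take no account of that choice. The mean log2 signal of the 3 control probe sets for 18S ribosomal RNA was 7.10 to 7.60 with siKeap1-1, 7.13 to 7.53 with siKeap1-2, 7.05 to 7.32 in siControl replicates 1 to 3 and 6.41 to 6.94 in siControl replicates 4 to 8. The signal of the 3′ probe set of Gapdh exceeded that of its 5′ probe set by 1.06 to 1.27 with siKeap1-1, 1.09 to 1.28 with siKeap1-2, 1.14 to 1.20 in siControl replicates 1 to 3 and 1.33 to 1.47 in siControl replicates 4 to 8. Cbs averaged 13.23 in siControl replicates 1 to 3 (13.07 to 13.36) and 13.48 in replicates 4 to 8 (13.28 to 13.59).

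Against siControl replicates 1 to 3 alone, the Cbs difference was −0.30 with siKeap1-1 (adjusted p = 0.226) and −0.10 with siKeap1-2 (adjusted p = 0.831), neither past the threshold with only 3 control arrays. Against replicates 4 to 8 alone it was −0.55 (adjusted p = 0.00131) and −0.35 (adjusted p = 0.0331), both past it. With the 18S level as a covariate, which itself differed between the groups, the difference was −0.29 with siKeap1-1 (adjusted p = 0.325) and −0.10 with siKeap1-2 (adjusted p = 0.88). The direction was the same in each of these fits.

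**Figure D2:**
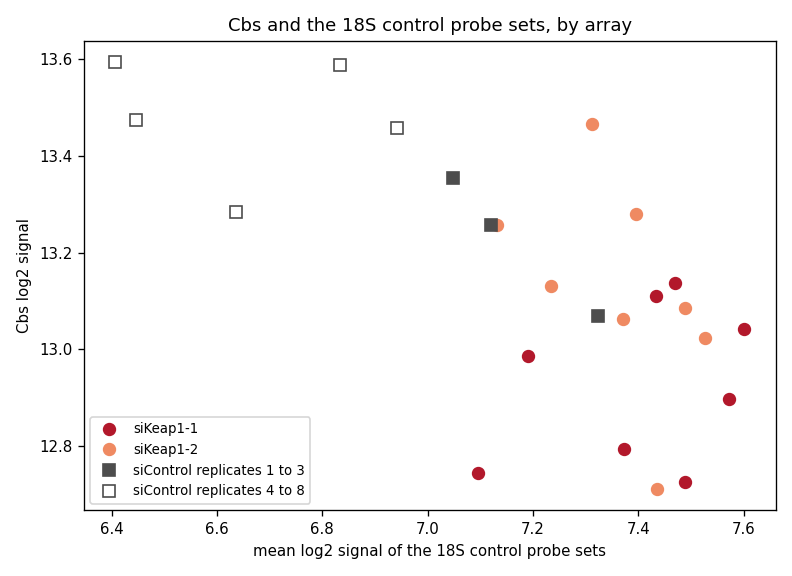
Log2 signal of Cbs (vertical axis) against the mean log2 signal of the 18S control probe sets (horizontal axis), with 1 point per mouse: siKeap1-1 and siKeap1-2 as circles, siControl replicates 1 to 3 as filled and 4 to 8 as open squares. The open squares lie apart at 18S levels of 6.41 to 6.94, and the filled squares lie at Cbs levels of 13.07 to 13.36. This division of the controls is not in the labels and was chosen with earlier results of these data known.

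Cth encodes cystathionine gamma-lyase, which releases cysteine from the product of Cbs. Its lowest, median and highest log2 signals were 11.94, 12.62 and 12.90 with siKeap1-1, 12.29, 12.58 and 13.22 with siKeap1-2 and 12.35, 12.70 and 13.16 with siControl. The groups overlapped over most of their range, with siKeap1-1 replicates 1 and 3 the lowest of all mice. The difference was −0.17 with siKeap1-1 (95% interval −0.47 to 0.12, adjusted p = 0.523 from limma) and −0.10 with siKeap1-2 (−0.39 to 0.20, adjusted p = 0.764). In percent of the control signal these intervals run from −27.7% to 8.93% and from −23.8% to 14.7%.

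Cdo1 encodes cysteine dioxygenase, which oxidizes cysteine and so opens the way to taurine and sulfate. It measured 13.37, 13.58 and 13.81 with siKeap1-1, 13.36, 13.66 and 13.76 with siKeap1-2 and 13.31, 13.57 and 13.77 with siControl. The ranges of the 3 groups were almost the same. The differences were 0.05 (95% interval −0.12 to 0.22) with siKeap1-1 and 0.04 (−0.12 to 0.21) with siKeap1-2, both turning negative with the 18S covariate (−0.10 each).

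Csad encodes the decarboxylase that makes hypotaurine, the step before taurine. It measured 8.72, 9.08 and 9.70 (lowest, median and highest) with siKeap1-1, 7.96, 9.60 and 10.01 with siKeap1-2 and 8.48, 9.97 and 11.12 with siControl. All siKeap1-1 mice lay between 8.67 and 9.93, a stretch that held no control mouse, with siControl replicates 1, 2, 4, 5 and 7 above it and replicates 3, 6 and 8 below it. The SD was 0.34 with siKeap1-1, 0.66 with siKeap1-2 and 1.03 with siControl, and the difference in spread was not tested. The mean differed by −0.60 with siKeap1-1 (95% interval −1.30 to 0.10, adjusted p = 0.31 in limma), and it differed by −0.32 with siKeap1-2 (−1.02 to 0.38, adjusted p = 0.652). In percent the interval with siKeap1-1 runs from −59.3% to 7.49%. With the 18S covariate, which differed between the groups, the estimates were −1.22 and −0.90 (adjusted p = 0.227 and 0.605).

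Phgdh encodes the dehydrogenase that draws 3-phosphoglycerate into serine synthesis. Its brightest probe set measured 6.39, 6.72 and 7.47 with siKeap1-1, 6.49, 6.89 and 7.59 with siKeap1-2 and 6.06, 6.94 and 7.22 with siControl. All groups overlapped. The differences were −0.0006 with siKeap1-1 (95% interval −0.37 to 0.37, adjusted p = 0.999) and 0.19 with siKeap1-2 (−0.19 to 0.56, adjusted p = 0.618). The other 3 probe sets gave −0.03 to 0.10 with siKeap1-1 and 0.03 to 0.14 with siKeap1-2, none past the threshold. All 4 were dim, with mean log2 signals of 6.86, 6.43, 5.87 and 5.39 over all arrays, where the median over all genes was 7.49. Whether they lay above background was not tested. The residuals of the 4 probe sets from the group means correlated with each other at a Pearson r of −0.11 to 0.79 over 24 arrays, so that they did not give one order of the mice.

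Psat1 encodes the aminotransferase that follows Phgdh. It measured 6.52, 7.68 and 9.45 with siKeap1-1, 6.58, 7.01 and 8.87 with siKeap1-2 and 6.38, 7.22 and 8.52 with siControl. In every group a few mice stood high, namely siKeap1-1 replicates 2, 3 and 6, siKeap1-2 replicates 7 and 8 and siControl replicates 6 and 7, all at 8.05 or above, and the other mice of all groups shared a range below. The difference in means was 0.44 with siKeap1-1 (95% interval −0.44 to 1.31, adjusted p = 0.594 from limma) and −0.04 with siKeap1-2 (−0.91 to 0.84, adjusted p = 0.976). Its second probe set gave 0.37 and −0.13 and followed the first with a Pearson r of 0.95. With the 18S covariate, which differed between the groups, the estimates were 1.69 (adjusted p = 0.106) and 1.12 (adjusted p = 0.53). Against siControl replicates 1 to 3 alone they were 0.95 and 0.48 (adjusted p = 0.409 and 0.812). The estimate for siKeap1-2 thus changed sign in both settings.

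**Figure D3:**
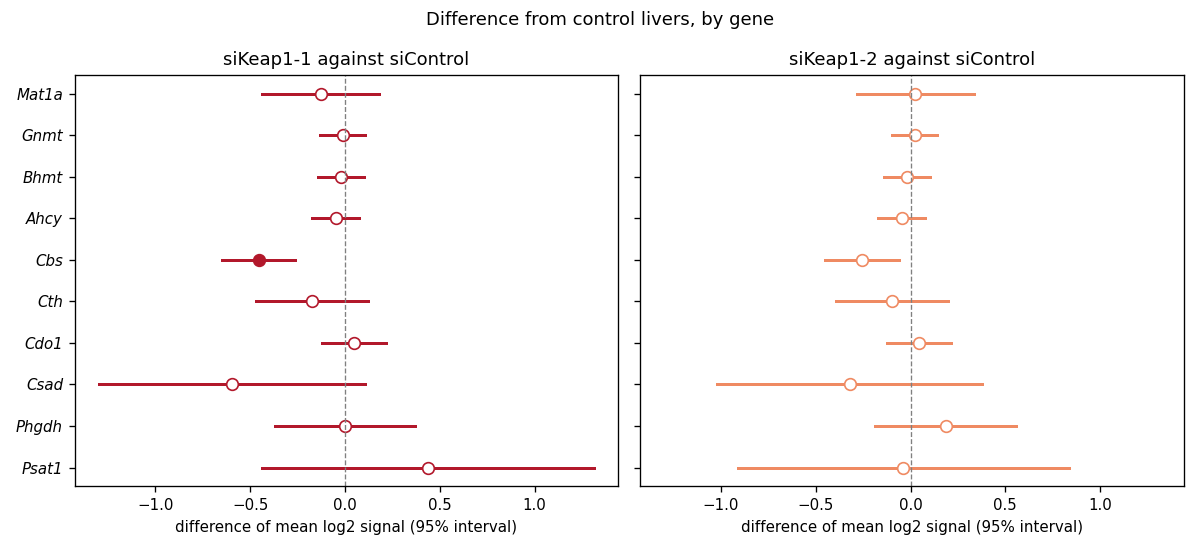
Difference in mean log2 signal from siControl (horizontal axis) for each of the 10 genes (vertical axis), with siKeap1-1 in the left panel and siKeap1-2 in the right panel, 95% intervals as lines and a filled point where the adjusted p was under 0.05. Cbs with siKeap1-1 (−0.46) is the filled point, and the intervals of Csad and Psat1 are the widest.

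The genes differed in how far mice of one group lay apart. The SD of the residuals from the group means was 0.10 for Gnmt and Bhmt and 0.11 for Ahcy, smaller than in all but 6.05%, 7.2% and 8.13% of genes. It was 0.73 for Csad and 0.92 for Psat1, larger than in 99.1% and 99.6% of genes, and the median over all genes was 0.19. From the lowest to the highest of the 24 mice, Psat1 spanned 8.42-fold and Csad 8.93-fold, whereas Gnmt spanned 1.35-fold and Bhmt 1.31-fold, both at bright signals whose linearity was not tested. Mat1a (0.32) and Cth (0.30) lay in between, and Cbs (0.19) was close to the median.

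Within groups several of these genes moved together from mouse to mouse. Over the 24 residuals from group means, 19 of the 45 pairs of genes correlated at an adjusted p under 0.05 (Pearson r, permuted within groups 100000 times, Benjamini-Hochberg over the 45 pairs), 15 positively and 4 negatively, and 17 of the 19 also did by Spearman's rho. All 19 had the same sign inside each of the 3 groups, though not the same size, with Cth and Cdo1 at r = 0.03 within siKeap1-2. How many pairs of other genes would pass was not tested, so that whether the count is particular to these enzymes is not known. Genes outside the lists, Psmd9 (r = 0.95), Pbld1 (0.93) and Nicn1 (0.93), followed Mat1a more closely than any of the other 9 genes did. Mat1a and Ahcy were the closest pair, with r = 0.91 and rho = 0.91 (permutation p = 1e-05, the smallest possible, adjusted 0.000225 for r), r = 0.89 without the 2 mice farthest from the median of Mat1a, and r of 0.95, 0.91 and 0.89 within siKeap1-1, siKeap1-2 and siControl. Gnmt and Cth gave r = 0.79 and rho = 0.78 (permutation p = 2e-05, adjusted 0.0003), and 0.71 without the 2 farthest mice. Mat1a and Cth gave r = 0.78 and rho = 0.77 (permutation p = 1e-05, adjusted 0.000225), and 0.71 without them. Within siKeap1-1, siKeap1-2 and siControl, r was 0.90, 0.565 and 0.90 for Gnmt and Cth, and 0.94, 0.53 and 0.80 for Mat1a and Cth.

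Psat1 was the gene of the 4 negative pairs. It ran against Ahcy (r = −0.67, rho = −0.71, permutation p = 0.00127, adjusted 0.00635), Gnmt (r = −0.65, rho = −0.63, permutation p = 0.00084, adjusted 0.0054) and Mat1a (r = −0.60, rho = −0.61, permutation p = 0.00485, adjusted 0.0156). Leaving out the 2 farthest mice gave r = −0.56, −0.57 and −0.50 for these pairs. Against Bhmt r was −0.51 (permutation p = 0.0146, adjusted 0.0345), and rho, at −0.41, did not pass (adjusted p = 0.114). Cbs correlated with none of the other 9 genes at this threshold, its largest r being −0.39 with Cdo1 (rho = −0.36, permutation p = 0.0698, adjusted 0.131).

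**Figure D4:**
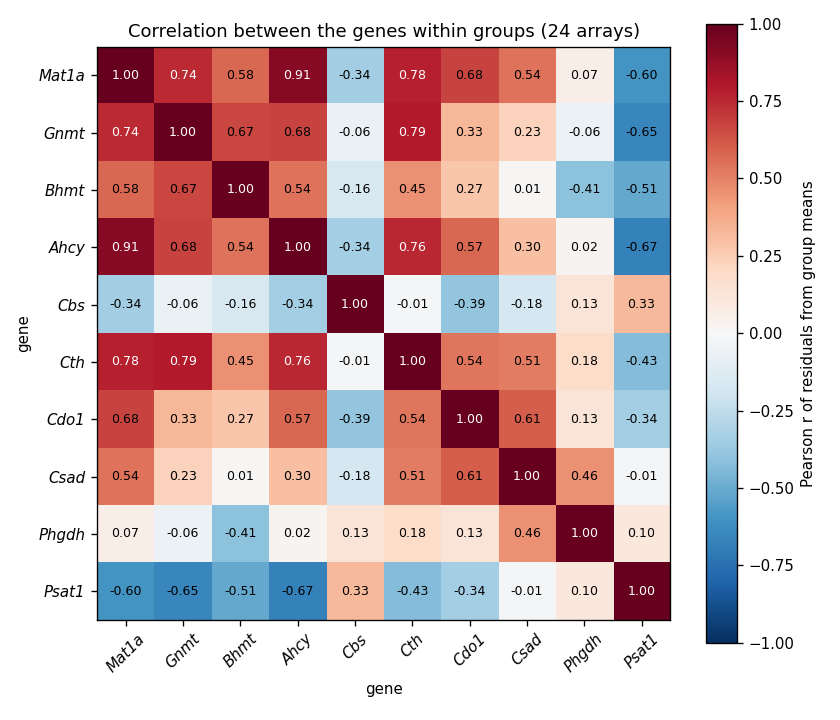
Pearson r between the residuals of each pair of the 10 genes from their group means over 24 arrays (colour and number in each cell, from −1 to 1). Mat1a, Gnmt, Ahcy and Cth correlate with each other at 0.68 to 0.91, Psat1 with the 4 methionine cycle genes at −0.67 to −0.51, and Cbs with the other genes at −0.39 to 0.33.

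The first component of the residuals of all other probe sets, which held 16.9% of their variance, took up 89.4% of the residual variance of Mat1a and 76.2% of that of Ahcy. It took 49.4% for Cdo1, 49.0% for Cth, 36.1% for Gnmt, 34.7% for Csad, 31.3% for Psat1, 29.1% for Cbs, 25.3% for Bhmt and 0.153% for Phgdh. The values of all genes in a mouse come from the same array and the same unrecorded feeding state, whose part was not tested. With this component as a covariate Cbs still passed with siKeap1-1 (−0.46, adjusted p = 0.000658) and none of the other 9 genes did.

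For each gene the 3 genes outside the lists with the closest residuals were looked up among 8190 genes of at least 8 in mean log2 signal, as a description over 24 arrays. For Mat1a they were Psmd9 (r = 0.95), Pbld1 (0.93) and Nicn1 (0.93). For Cbs they were Plxnb1 (0.86), Tmem51 (0.82) and Tpm4 (0.81). For Psat1 they were Mars1 (0.83) and Myef2 (0.82), with Rtcb running the other way (−0.81), and for Csad they were Bdh2 (−0.83), Slc30a9 (−0.81) and Dnase2a (0.80). The closest genes of Phgdh reached only 0.68 (Ikzf1).

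Around the 10 enzymes, 52 of 61 listed genes of neighbouring steps were measured. With siKeap1-1, 5 of the 52 were higher, 3 were lower and 44 did not pass, where 9.49% of all genes passed, with a median log2 fold change of −0.0039 beside 0.014 over all genes. With siKeap1-2, 2 were higher, 2 were lower and 48 did not pass, where 6.6% of all genes passed, with a median of −0.0054 beside −0.0073 over all genes. An unadjusted p under 0.05 was found for 20 of the 52 with siKeap1-1 and 18 with siKeap1-2, beside 4459 and 3986 of all 18193 genes. None of the 52 passed between the siRNAs, where 4 had an unadjusted p under 0.05.

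Sulfide and cysteine breakdown held the largest change among them. Ethe1, the mitochondrial dioxygenase that removes persulfide, had log2 signals of 10.73, 11.43 and 11.94 (lowest, median and highest) with siKeap1-1, 10.89, 11.27 and 11.46 with siKeap1-2 and 10.18, 10.53 and 10.70 with siControl. Every siKeap1-1 and siKeap1-2 mouse was above every control. Ethe1 rose by 0.91 with siKeap1-1 (95% interval 0.62 to 1.19, adjusted p = 0.000136 by limma) and by 0.70 with siKeap1-2 (95% interval 0.42 to 0.99, adjusted p = 0.00299). Tst, which moves sulfur from thiosulfate to cyanide, went the other way, with differences of −0.29 (adjusted p = 0.00311) and −0.21 (adjusted p = 0.0392), and 6 of 8 siKeap1-1 mice and 7 of 8 siKeap1-2 mice were below every control. The other 9 of the 11 genes of this list did not pass with either siRNA, where 9.49% and 6.6% of all genes passed. Of the 11, 3 with siKeap1-1 and 5 with siKeap1-2 had an unadjusted p under 0.05, Ethe1 and Tst included.

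Among 7 methyltransferases that use S-adenosylmethionine, As3mt, which methylates arsenic, measured 9.63, 9.88 and 10.47 with siKeap1-1, 9.88, 10.06 and 10.58 with siKeap1-2 and 10.40, 10.67 and 10.89 with siControl. Its values overlapped with the controls in 1 siKeap1-1 mouse and 2 siKeap1-2 mice. As3mt fell by 0.70 on the log2 scale (adjusted p = 0.000404) with siKeap1-1 and by 0.50 (adjusted p = 0.012) with siKeap1-2. Tpmt, which methylates thiopurines, rose by 0.35 with siKeap1-1 (adjusted p = 0.0453), while its other 3 probe sets did not pass, nor did the mean over all 4 (0.20, adjusted p = 0.334).

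In the methionine cycle and salvage list 3 of 13 genes passed with siKeap1-1 (9.49% of all genes did) and none with siKeap1-2 (6.6% of all genes did), where 5 of the 13 had an unadjusted p under 0.05. Mtap, the phosphorylase that starts methionine salvage from methylthioadenosine, rose by 0.27 (adjusted p = 0.0448), and all 4 of its probe sets passed (0.27 to 0.44). Srm, the spermidine synthase, rose by 0.27 (adjusted p = 0.0258). Bhmt2, a relative of Bhmt that methylates homocysteine from S-methylmethionine, fell by 0.18 (adjusted p = 0.045), with a second probe set at −0.20 that did not pass (adjusted p = 0.104).

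Of 16 genes of serine, glycine and folate metabolism 7 had an unadjusted p under 0.05 with siKeap1-1 and 6 with siKeap1-2. Only Srr, the serine racemase, passed, where 9.49% and 6.6% of all genes did. It was at 0.30 with siKeap1-1 (adjusted p = 0.00133) and 0.23 with siKeap1-2 (adjusted p = 0.0152). Of its 6 probe sets 4 passed with siKeap1-1, all upward, the other 2 were at −0.29 and −0.15, and the mean over all 6 did not pass with either siRNA (0.12, adjusted p = 0.192, and 0.07, adjusted p = 0.532). None of the 5 genes of choline and betaine supply passed with either siRNA, where 1 had an unadjusted p under 0.05 with each. Sardh, the sarcosine dehydrogenase, differed by 0.08 with siKeap1-1 (95% interval −0.03 to 0.19) and by 0.02 with siKeap1-2 (−0.09 to 0.13).

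Several of these calls ended in other settings. With the 18S covariate 3 of the 52 genes passed with siKeap1-1, namely Ethe1, As3mt and Srr, and 0 with siKeap1-2 (11 at an unadjusted p under 0.05). Against siControl replicates 1 to 3 alone 4 passed with siKeap1-1, of which 3 had passed against all controls (Ethe1, As3mt and Srr) and 1 had not (Mri1, named after its value was seen), and 0 with siKeap1-2 (11 at an unadjusted p under 0.05). With siKeap1-2 Ethe1 was then at 0.78 (adjusted p = 0.0885), As3mt at −0.48 (adjusted p = 0.236), Tst at −0.19 (adjusted p = 0.415) and Srr at 0.30 (adjusted p = 0.0948). Against all controls these estimates were 0.70, −0.50, −0.21 and 0.23. The fit against replicates 1 to 3 has only 3 control arrays, and its calls over all probe sets with siKeap1-2 were 358, against 2748. Not passing there does not show that a difference is absent. Against siControl replicates 4 to 8 alone, Bhmt2 (−0.20, adjusted p = 0.0595), Mtap (0.29, adjusted p = 0.0641) and Tpmt (0.35, adjusted p = 0.0889) did not pass with siKeap1-1. With siKeap1-2 3 genes then passed, Ethe1, As3mt and Mthfd2l (the last named after its value was seen), and Tst (−0.22, adjusted p = 0.0558) and Srr (0.19, adjusted p = 0.0732) did not.

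**Figure D5:**
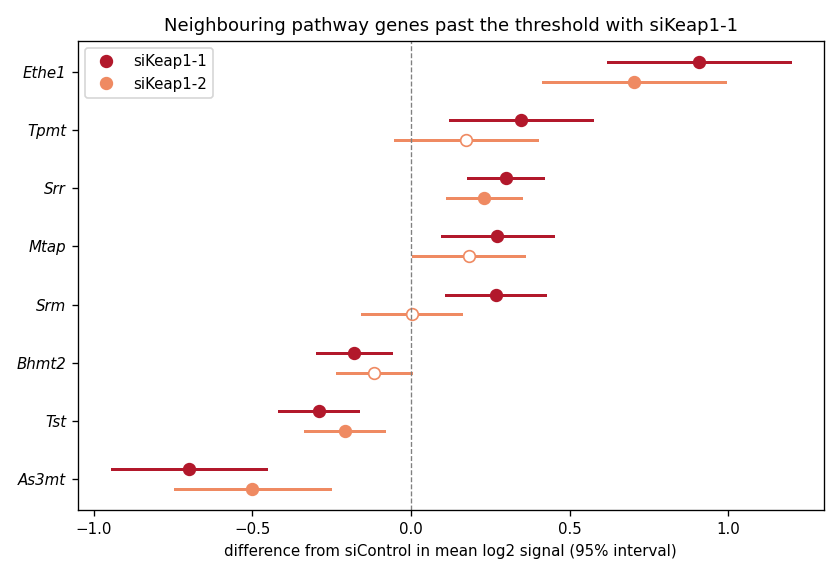
Difference in mean log2 signal from siControl (horizontal axis) for the 8 neighbouring genes that passed with siKeap1-1 (vertical axis), with 95% intervals, siKeap1-1 above siKeap1-2 for each gene and filled points at an adjusted p under 0.05. Ethe1 lies highest at 0.91 and 0.70 and As3mt lowest at −0.70 and −0.50, and 4 of the 8 genes have filled points for both siRNAs.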

How the data were processed

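Liver RNA was measured on 1 Affymetrix array per mouse. The deposited values are log2 signals that the authors made with RMA (version not given in the sources used here), which corrects background, normalizes between arrays and summarizes each probe set. They were used as deposited. Without the 64 manufacturer's controls, 45037 probe sets entered one limma 3.58.1 fit (lmFit, eBayes; R 4.3.3) of the 3 siRNA groups, with Benjamini-Hochberg adjustment over all of them and no filter on dim signals. Feeding state, a likely factor of the methods' own test, is not in the labels and was not fitted. The brightest probe set that GEO's platform annotation gives to a single gene stands for that gene. Intervals are 95% intervals of the fit, whose precision the number of arrays limits.

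Residuals from group means were correlated in Python 3.11.15. All 10 genes are named, with each gene of the neighbouring lists that passed with either siRNA (where none did, the one with the largest mean), and the 3 genes of closest residuals for some members. The members, lists and divisions of the controls were chosen with earlier results of these data known. The fit was tested on simulated data. Alternatives covered normalization, centring, dim probe sets, moderation, weights on arrays, samples in the fit, a replicate block, the first residual component, 18S signals, parts of the controls, the mean over a gene's probe sets and the study's thresholds. The control subsets for neighbouring genes, and the correlations after centring or quantile normalization, were added after seeing the data.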

Additional observations from a re-analysis of the deposited data

Results flagged for a closer look

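Of 45 groups of 8 values (15 probe sets in 3 groups), 3 had a mouse far from the other 7, and chance gives about 1 in 20 such groups. Gnmt was at 13.70 in siKeap1-1 replicate 3, with the other mice of that group at 13.98 to 14.14. Bhmt was at 14.35 in the same mouse, with the others at 14.56 to 14.73, and that mouse also had the lowest Mat1a and Cth signals of the group. Csad was at 7.96 in siKeap1-2 replicate 4, with the others at 9.25 to 10.01. The control probe sets for 18S ribosomal RNA, which lie outside the comparisons, had a mean log2 signal higher than with siControl by 0.56 with siKeap1-1 and by 0.52 with siKeap1-2. Most of this came from the brightest of them, which averaged 10.91 with siKeap1-1, 10.86 with siKeap1-2 and 9.67 with siControl. The dimmer ones averaged 6.35, 6.33 and 6.12, and 4.95, 4.895 and 4.74, in the same order of groups.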

How the results depend on the processing

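Of 467 alternative log2 fold changes, 413 kept their direction and side of the threshold, 32 lost it, 1 gained it and 21 changed sign, and the cause was not tested. Of the 10 genes only Cbs, with siKeap1-1, had a call to lose. The 413 therefore hold many results that had not passed and again did not, and are no measure of how stable the calls were. Cbs passed with siKeap1-1 in every alternative other than the 18S covariate and siControl replicates 1 to 3 as the only controls, where 0 of the 10 genes passed (4 and 1 with siKeap1-1 at an unadjusted p under 0.05), and the study's thresholds of a fold over 2 and an unadjusted p under 0.01, where 0 passed. Against siControl replicates 4 to 8, 1 gene passed with siKeap1-2. For the neighbouring genes the counts were 8 with siKeap1-1, against 3 under the 18S covariate, 4 for siControl replicates 1 to 3 and 5 for replicates 4 to 8, and 4 with siKeap1-2, against 0 under the 18S covariate and 0 for replicates 1 to 3 (11 at an unadjusted p under 0.05 in both) and 3 for replicates 4 to 8, of which 2 were among the 4. Signs changed with the 18S covariate for siKeap1-2 in Mat1a (−0.32), Gnmt (−0.0375), Psat1 (1.12), Srm (−0.0273) and Cdo1 (−0.10), for siKeap1-1 in Cdo1 (−0.10) and between the siRNAs in Cdo1 (−0.0078). With siControl replicates 1 to 3 they changed for siKeap1-2 in Mat1a (−0.0181), Psat1 (0.48) and Srm (−0.0684) and for siKeap1-1 in Phgdh (0.15). With array weights they changed in Gnmt (0.0021, siKeap1-1), Psat1 (0.0732, siKeap1-2), and between the siRNAs in Bhmt (0.0078) and Ahcy (0.0047). With quantile normalization they changed in Phgdh (0.0194, siKeap1-1), Psat1 (0.0088, siKeap1-2), and between the siRNAs in Ahcy (0.0009) and Cdo1 (−0.0002). Median centring gave 0.0007 for Ahcy between the siRNAs, and the mean over probe sets gave 0.0225 for Phgdh with siKeap1-1.

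Among all 45037 probe sets, calls numbered 4049 for siKeap1-1 and 2748 for siKeap1-2. They numbered 831 and 265 under the 18S covariate, 1540 and 358 against siControl replicates 1 to 3, and 4303 for siKeap1-2 against replicates 4 to 8. Between the siRNAs 73 passed, against 128 with the first residual component and 44 with the block. The labels do not say whether the replicate numbers pair the mice. Of 24 same-numbered pairs 9 correlated above 0.1 (−0.17 to 0.28) and 4 correlated best with their own number. No reference level was computed, so these counts do not decide the question. With the replicate block, the 10 genes gave 1 call for siKeap1-1, 0 for siKeap1-2 and 0 for the siRNAs against each other, and the neighbouring genes gave 8 and 5. Under the block 6 of the 8 and all 4 earlier calls were kept. Bhmt2 and Mtap lost theirs (adjusted p = 0.0558 and 0.0609), and Gldc and Mri1 with siKeap1-1 and Suox with siKeap1-2 gained one. No correlation named changed sign after centring or quantile normalization.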
